A study of Homo sapiens with 4 samples.

Results

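The replicative DNA polymerases are described here through 10 of their subunit mRNAs, chosen by gene name out of 63677 genes counted: POLA1, POLA2, PRIM1 and PRIM2 of polymerase alpha-primase, POLE, POLE2, POLE3 and POLE4 of polymerase epsilon, and POLD2 and POLD3 of polymerase delta. The rule names genes and uses no measured value, though the genes were picked with earlier results of these data known. All 10 were among the 15116 genes with enough counts to be tested. The libraries are RNA-seq of HCT116 cells, a human colorectal cancer line, transfected for 48 h with an antisense oligonucleotide (ASO) and numbered 232 and 234 within each ASO. The anti-GAA ASO (2 libraries) is complementary to tandem GAA repeats in RNA. It carries modified nucleotides around a DNA core, the design with which RNase H is brought to a bound RNA. The control ASO (2 libraries) has no intended target, and no untreated library was analysed. The study asked whether RNAs with GAA repeats take part in the activation of replication origins, and the libraries allow the question whether mRNAs of the polymerases at the fork differed between the ASOs. The labels give 48 h and a total RNA kit, whereas the methods give a shorter transfection and an mRNA kit, so the capture of RNAs without a poly(A) tail is uncertain.

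Polymerase alpha-primase starts each new DNA strand: primase lays down a short RNA and polymerase alpha extends it with DNA. Polymerase epsilon, bound to the replicative helicase, then carries the leading strand, and polymerase delta completes the Okazaki fragments of the lagging strand. Transcription of many of the subunit genes rises toward S phase under E2F factors.

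Total counts ran from 10538284 to 17894953 per library, and the subunits had between 130 and 4527 counts each. The ASOs are called anti-GAA and control below, and values are given for libraries 232 and 234 in that order. Levels are given in CPM, a gene's counts as parts of the library's total, after TMM scaling, which sets the libraries to a common composition. Differences are log2 fold changes of anti-GAA over control with their standard error (SE) from edgeR's quasi-likelihood test, with p adjusted over all 15116 tested genes by Benjamini-Hochberg and a threshold of 0.05. The labels do not say that the libraries came from separate cultures, while the paper's methods call them duplicate experiments. The p values measure only the spread between these libraries, part of which may be technical. Of 9 epithelial markers 7 were tested, led by KRT19, a keratin, at 1327 and 1639 CPM under anti-GAA and at 1114 and 1366 CPM under control. The 7 markers had a median log2 fold change of -0.27, with 5 lower, and KRT18, the 1 marker at an unadjusted p under 0.05, was at -0.54 (unadjusted p 0.0434 and adjusted p 0.996 in edgeR). VIL1, a protein of the brush border, had at most 2 counts in a library. Of 9 markers of blood, vessel, stromal, liver and glial cells 1 was tested, COL1A1, at 10.1 to 14.6 CPM, and CD3E, PECAM1 and COL1A2 were at 0 in all 4 libraries. In bulk RNA, a lower share of cells in S phase and less RNA per cell cannot be told apart.

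Because the anti-GAA ASO pairs with GAA repeats, the longest perfect GAA run in each subunit's canonical transcript was located. The 4 runs of at least 9 nt are printed as the RNA strand in DNA letters, with the run in capitals and 6 bases on each side. They are the places in the subunit mRNAs that come closest to an unbroken repeat.
POLE3: aggctgGAAGAAGAAGAAcagaat
POLA2: gaagtgGAAGAAGAAGAggaaat
POLE: tgccgtGAAGAAGAAcaggga
POLA1: gatactGAAGAAGAAaagatc
All 4 runs lie in coding exons: the POLE3 run of 12 nt in exon 5 (GRCh38 chr9:113408841-113408852, minus strand), the POLA2 run of 11 nt in exon 4 (chr11:65268682-65268692, plus strand), the POLE run of 9 nt in exon 6 (chr12:132679545-132679553, minus strand) and the POLA1 run of 9 nt in exon 7 (chrX:24716397-24716405, plus strand). The other 6 subunits had runs of 6 to 8 nt. A run of at least 9 nt was thus present in 4 of 10 subunits and in 20.1% of 14751 tested genes with a transcript, and a run of at least 12 nt in 1 of 10 and in 2.61%. Over the whole gene, introns included, 6 of 10 subunits had a run of at least 9 nt, beside 50.2% of those genes. A run of at least 12 nt over the gene was present in 2 of 10, POLE3 and POLD3, beside 11.3%. Against the full target of 7 GAA units (21 nt), the best window in POLA2 matched 18 bases and the best window in POLE3 matched 17, with matching bases in capitals.
POLA2: GAAGtgGAAGAAGAAGAgGAA
POLE3: GAAGAAGAAGAAcAgaAtGAA
These windows lie at chr11:65268676-65268696 and chr9:113408832-113408852. A match of at least 18 bases was found in 2.65% of the tested genes. Both subunits with the longest runs in the transcript come up again below, POLA2 with overlapping values between the ASOs and POLE3 with the widest spread between libraries.

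With the ASO as the only term, the 10 subunit mRNAs did not differ between the ASOs by more than the libraries varied. That spread includes the difference between the library numbers. The smallest adjusted p of all tested genes in this edgeR fit was 0.671. No subunit passed the adjusted threshold (background 0.0% of tested genes) and none was at an unadjusted p under 0.05 (background 4.48%), with an adjusted p of 0.996 for each in edgeR. DESeq2 also called 0 of 10 (background 0.0107% of 28017 genes), with 0 at an unadjusted p under 0.05 (background 1.63% of these 28017). Those 28017 genes include ones with too few counts for the edgeR test. Of the 15116 genes tested by edgeR, 413 were at an unadjusted p under 0.05 in DESeq2. With the number as a second term, edgeR called 0 of 10, where 51 of 15116 tested genes were called higher and 207 lower. The smallest p of a subunit in that edgeR fit was 0.109 unadjusted and 0.428 adjusted. The log2 fold change was above 0 for 6 subunits and below 0 for 4 (51.6% of tested genes were above 0), and its median was 0.04 over the 10 subunits and 0.01 over all tested genes. With libraries scaled to total counts, which moves the median of all genes to -0.08, 2 of 10 were above 0, so the signs of the smaller values depend on the scaling. With the ASO as the only term, all 10 of the 95% intervals lay within 1 log2 unit of 0. They ran from a lowest bound of -0.98 for POLE3 to a highest bound of 0.80 for PRIM1. A change of 2-fold or more lies outside each interval, while changes to 0.507 of the control level (POLE3) or to 1.74 of it (PRIM1) lie at the edge of theirs.

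**Figure D1:**
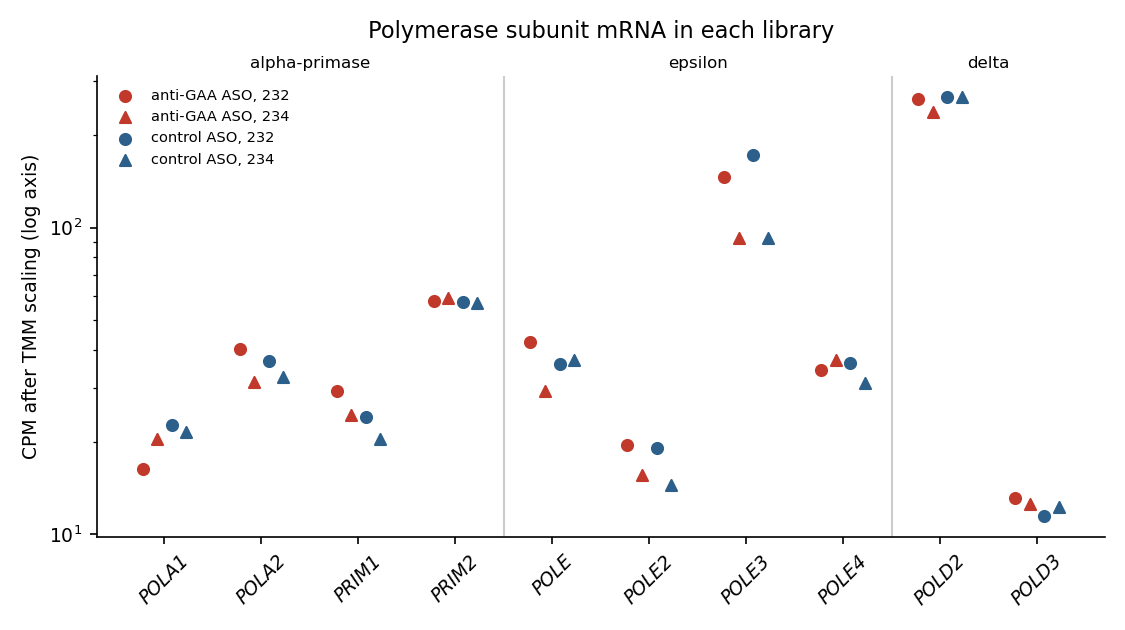
Level of each subunit mRNA in CPM after TMM scaling (log axis) in the 4 libraries, grouped by polymerase; red is the anti-GAA ASO, blue the control ASO, circles the libraries 232 and triangles the libraries 234. Red and blue overlap for 5 of the 10 subunits, where 32.4% of tested genes do not overlap. POLE3 splits by number instead, near 146 and 172 CPM for 232 and near 92.7 and 92.8 CPM for 234.

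In polymerase alpha-primase the catalytic subunits of the 2 enzymes had the largest differences of the 10, in opposite directions, and neither passed the test. POLA1, the DNA polymerase subunit (chrX:24693873-24996986), was at 16.4 and 20.5 CPM in the anti-GAA libraries 232 and 234 and at 22.8 and 21.6 CPM in the control libraries. Both anti-GAA values lay below both control values, and the lowest came from the library with the fewest counts. The log2 fold change was -0.26 (SE 0.23, 95% interval -0.80 to 0.28), with an unadjusted p of 0.290 in edgeR.

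PRIM1, the primase subunit that makes the RNA (chr12:56730438-56752374), was at 29.2 and 24.5 CPM under anti-GAA and at 24.1 and 20.5 CPM under control. Both anti-GAA values were higher, the lower of them only narrowly above the higher control value. Its log2 fold change was 0.27 (SE 0.22, 95% interval -0.26 to 0.80), with an unadjusted p of 0.268 in edgeR, the smallest of the 10. PRIM1 shares 139 exon bases with NACA, a gene of the same strand with 7571 to 15930 counts per library, and 132 with HSD17B6 on the other strand, so its 289 to 436 counts depend on how shared reads were assigned.

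POLA2, the B subunit that holds the polymerase together (chr11:65261913-65305959), was at 40.1 and 31.4 CPM under anti-GAA and at 36.8 and 32.6 CPM under control. The groups overlapped, and the log2 fold change was 0.04 (SE 0.22, 95% interval -0.49 to 0.57). POLA2 is the subunit with the closest match to the ASO target. PRIM2, the large primase subunit with an iron-sulfur cluster (chr6:57314805-57646850), was the steadiest, at 57.5 and 59.0 CPM against 57.1 and 56.8 CPM. Its log2 fold change was 0.03 (SE 0.19, 95% interval -0.42 to 0.49). The annotation also holds PRIM2BP, a copy of PRIM2 on the same chromosome that is not among the counted genes, and how reads matching both were treated is not given in the sources used here.

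The ratio of POLA1 to PRIM1 within a library does not depend on scaling. On the log2 scale of counts it was -0.84 and -0.26 in the anti-GAA libraries and -0.08 and 0.08 in the control libraries, a difference of -0.54. This ratio was picked after the values had been seen, and its difference was the largest of all ratios of 2 subunits within a complex. The groups also did not overlap for POLA1 to PRIM2, POLA2 to PRIM1 and POLD2 to POLD3, and overlapped for the rest. Of single tested genes, 32.4% had groups that did not overlap. An exact permutation test of 2 against 2 cannot give a two-sided p under 0.333, the value for groups that do not overlap. The ratios were not tested.

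Among the polymerase epsilon subunits no group separated from the other. POLE, the catalytic subunit with its own proofreading exonuclease (chr12:132623753-132687376), was at 42.3 and 29.4 CPM under anti-GAA and at 35.8 and 37.0 CPM under control. The anti-GAA libraries enclosed the control libraries, and the log2 fold change was -0.02 (SE 0.24, 95% interval -0.60 to 0.55). By number, POLE was 0.24 higher on the log2 scale in libraries 232 and 0.33 lower in libraries 234, the widest disagreement between the numbers among the subunits.

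POLE2, the B subunit (chr14:49643555-49688422), was at 19.6 and 15.6 CPM under anti-GAA and at 19.0 and 14.5 CPM under control. Its values followed the library number more than the ASO, with a log2 fold change of 0.06 (SE 0.26, 95% interval -0.55 to 0.68).

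The remaining epsilon subunits, POLE3 and POLE4, form a histone-fold pair that binds DNA and histones. POLE3 (chr9:113407235-113410675) was at 146 and 92.7 CPM under anti-GAA and at 172 and 92.8 CPM under control. Libraries 234 were alike and lower than libraries 232 under both ASOs, and the log2 fold change with the ASO was -0.15 (SE 0.35, 95% interval -0.98 to 0.68), the widest interval of the 10. POLE4 (chr2:74958643-74970128) was at 34.2 and 37.1 CPM against 36.3 and 31.0 CPM and did not follow its partner by number, with a log2 fold change of 0.09 (SE 0.21, 95% interval -0.40 to 0.58).

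The delta subunits were the highest and the lowest in CPM. POLD2, the B subunit (chr7:44114631-44124358), was at 263 and 238 CPM under anti-GAA and at 265 and 267 CPM under control. Both anti-GAA values were lower, only slightly so in libraries 232, and the log2 fold change was -0.09 (SE 0.19, 95% interval -0.53 to 0.35). POLD3, an accessory subunit that binds the sliding clamp PCNA (chr11:74493851-74669117), was at 13.1 and 12.5 CPM against 11.5 and 12.3 CPM. Its groups did not overlap, with a log2 fold change of 0.11 (SE 0.24, 95% interval -0.46 to 0.68). POLD3 shares 123 exon bases with LIPT2-AS1, a gene of the same strand with 24 to 53 counts per library. The 130 to 223 counts of POLD3 may therefore also depend on how shared reads were assigned. POLD2 and POLD3 also belong to polymerase zeta, which copies damaged DNA.

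Read across complexes, the median log2 fold change was 0.04 for alpha-primase (4 subunits), 0.02 for epsilon (4 subunits) and 0.01 for delta (2 subunits). The groups did not overlap for 5 of 10 subunits, 3 higher and 2 lower with the anti-GAA ASO, where 32.4% of tested genes did not overlap (15.5% higher, 16.9% lower). Compared number by number, PRIM1, PRIM2, POLE2 and POLD3 were higher with the anti-GAA ASO in both numbers, POLA1, POLE3 and POLD2 lower in both, and POLA2, POLE and POLE4 differed in sign. Over all tested genes 31.8% were higher in both, 30.0% lower in both and 38.2% of opposite sign. The value of POLE3 in libraries 234 was 0.00, so its place in the second set rests on libraries 232.

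**Figure D2:**
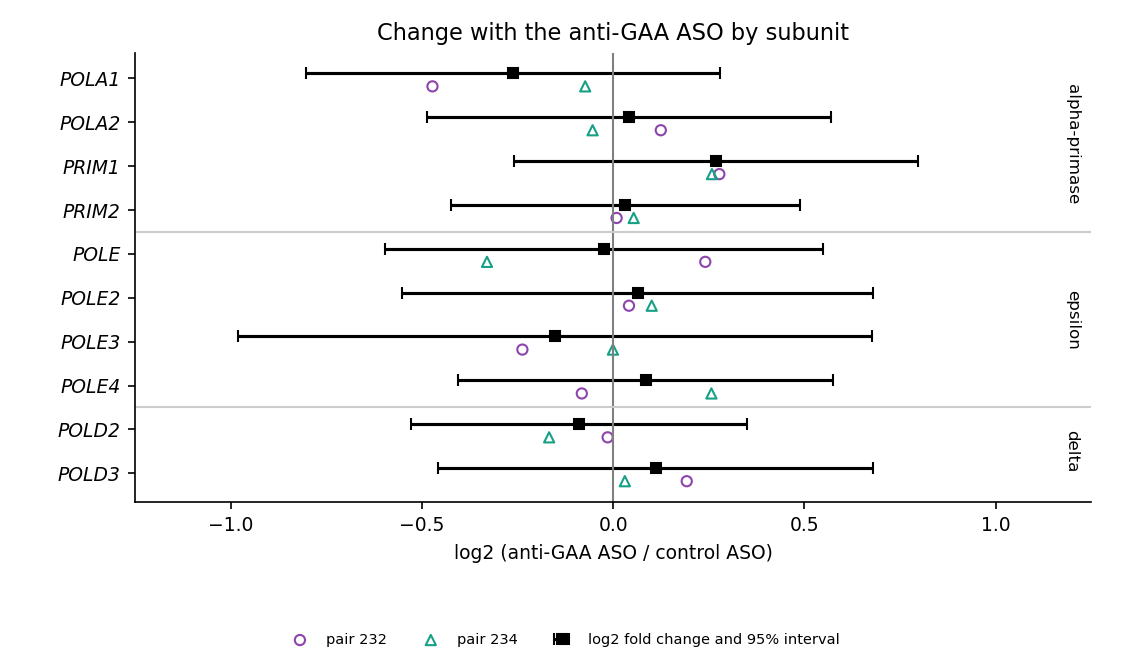
Log2 fold change of anti-GAA over control for each subunit (black squares, bars are 95% intervals of edgeR's fit) with the difference between the libraries 232 (circles) and between the libraries 234 (triangles) below it. Every interval crosses 0, and the circle and triangle of POLE lie on opposite sides at 0.24 and -0.33.

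The library number went with a larger difference than the ASO for POLE3 above all. The labels do not say what 232 and 234 stand for, so the difference cannot be put down to a culture, a day or a sequencing run. In edgeR's fit with the ASO and the number as terms, POLE3 was lower in libraries 234 by a log2 fold change of -0.77 (SE 0.14, 95% interval -1.07 to -0.48, adjusted p 0.00318), which is 0.584 of its level in libraries 232. Within each ASO the difference was -0.66 under anti-GAA and -0.89 under control. POLE3 was the 1 subunit of 10 past the threshold, where 14.5% of tested genes passed it and 7.52% passed as lower, and its absolute change with the number was at the 87.6th percentile of all tested genes.

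The next subunits in order of size were POLE2 at -0.36 (SE 0.17, adjusted p 0.173 in edgeR), POLA2 at -0.26 (SE 0.15), PRIM1 at -0.24 (SE 0.16) and POLE at -0.24 (SE 0.17), none past the threshold. POLA1 was at 0.12, and PRIM2, POLE4, POLD2 and POLD3 lay between -0.07 and 0.02. In this fit 4 of 10 subunits moved more with the number than with the ASO, against 59.4% of tested genes. The ratio of POLE3 to POLE4, log2 of counts, was 2.09 and 2.25 in libraries 232 and 1.32 and 1.58 in libraries 234.

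Some cell cycle and fork genes were also lower in libraries 234. Of 12 G2 and mitosis genes 6 were lower at the adjusted threshold and 0 higher, beside 7.52% of tested genes lower, and the 5 genes CCNB2, CDK1, BUB1, KIF11 and CENPE had changes from 0.08 to 0.30 on the log2 scale that did not pass. Of 16 genes of the helicase and its tethers 6 were lower and 0 higher. Other lists, described below, did not share this. The clamp and its loaders (10 tested) and RPA and Okazaki fragment maturation (9 tested) had 0 lower and 0 higher. Of 12 genes of dNTP supply 1 was lower and 1 higher, and of 14 G1/S genes 2 were lower and 1 higher. Over the 6 replication lists together 8 of 62 genes were lower and 2 higher. Of the 7 tested epithelial markers 1 passed, KRT20, at 5 counts in each of libraries 232 and at 26 and 58 counts in libraries 234, and the other 6 lay between -0.17 and 0.40. The part of these differences in that of POLE3 was not tested.

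**Figure D3:**
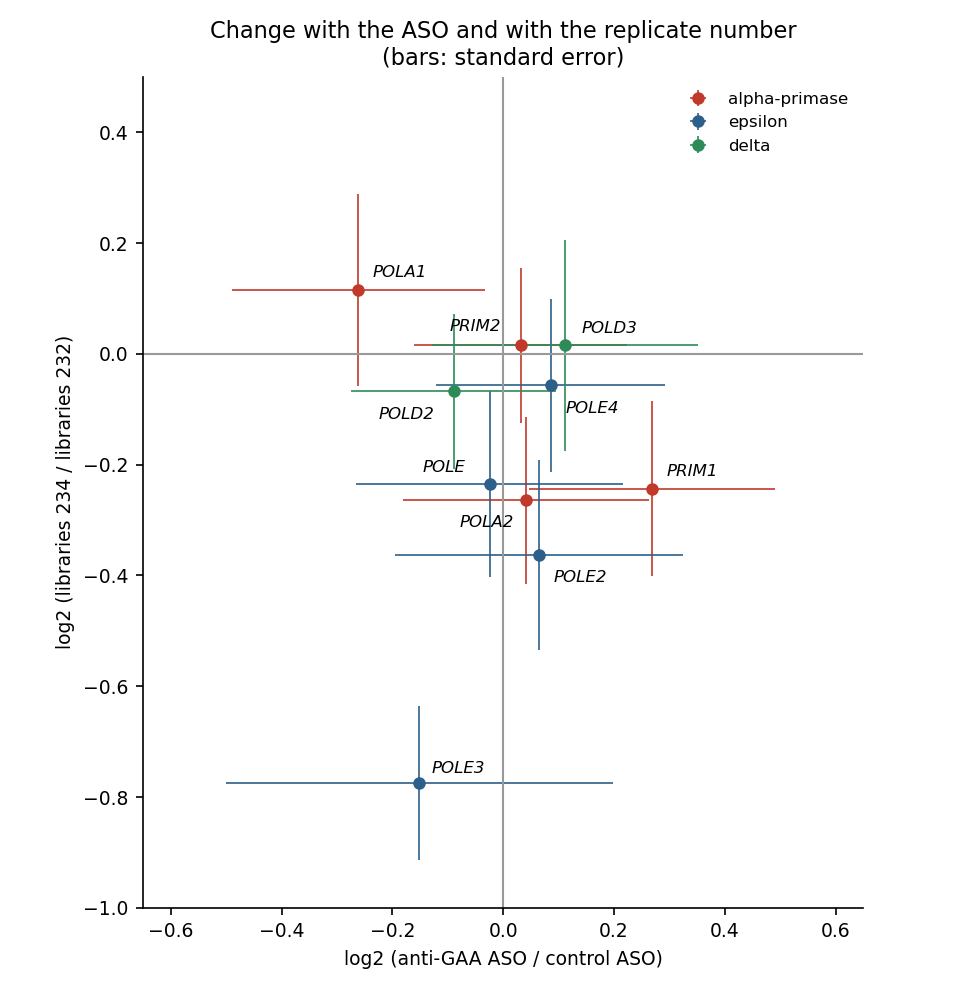
Each subunit's log2 fold change with the ASO (horizontal axis, anti-GAA over control) against its log2 fold change with the library number (vertical axis, 234 over 232), with standard errors as bars and the polymerases in colour. POLE3 lies apart at -0.15 and -0.77, and the other 9 subunits lie between -0.36 and 0.12 on the vertical axis.

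The subunits of a polymerase act in fixed numbers in the protein complex, but their mRNA levels per length spread widely. Counts per kilobase of annotated exon were scaled to a common total per library, a unit known as TPM. POLE3 had a mean of 116 TPM (range 87.9 to 157 over 4 libraries), followed by POLD2 at 78.7 (72.5 to 89.9), POLE4 at 42.2 (37.8 to 45.8), PRIM2 at 24.9 (22.5 to 27.1) and PRIM1 at 17.9 (16.7 to 19.5). Below these lay POLE2 at 14.1 TPM (13.1 to 15.4), POLA2 at 7.11 (6.45 to 7.38), POLE at 7.10 (5.87 to 8.07), POLD3 at 5.47 (4.97 to 6.01) and POLA1 at 3.20 (2.33 to 3.74). The ranges of neighbours overlapped for POLE3 and POLD2, for POLA2 and POLE and for POLE and POLD3, and not for the other neighbours.

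The polymerase catalytic subunits POLA1 and POLE were thus low among the subunits, as were POLA2 and POLD3, which are not catalytic. The histone-fold subunits were high, as was the B subunit POLD2. The order at both ends depends on the length used: per kilobase of the canonical transcript, a setting added after the data had been seen, POLD2 came first at 217 TPM, POLE3 second at 76.4, and POLD3 last at 4.39 behind POLA1 at 5.02. The place of POLA2 beside POLE also depends on the length. Per kilobase of the canonical transcript POLA2 was at 13.3 TPM, near POLE2 at 13.6, with POLE at 6.21. Within alpha-primase POLA1 stayed the lowest and PRIM2 the highest with both lengths.

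Promoters were searched for 4 sets of letters of the E2F type, TTTCGCGC, TTTGGCGC, TTTCCCGC and TTTGCCGC, on both strands, in RefSeq windows from 250 bases before to 50 after the start (GRCh38.p14). Windows were found for 9 of the 10 genes, POLD3 being the exception, and 5 of the 9 held a match, against 3.99% of 27305 genes with a window. They are printed in gene direction with the match in capitals, because the same letters recur in several subunit genes.
POLA1: atcacaggGCGCCAAAcgcgcgtc
POLA2: gctcccggTTTCGCGCatgcgtgc
POLE: gtgggagcGCGCCAAAtttctccc
POLE2: cggcggtgGCGCCAAAtcgcaaat
POLE4: cagcccgcGCGGGAAAgggcctgc
POLA1, POLE and POLE2 hold the same 8 letters (TTTGGCGC read on the other strand), and POLA2 and POLE4 each hold another of the sets. The matches lie at chrX:24693781-24693788, chr11:65261909-65261916, chr12:132687353-132687360, chr14:49688212-49688219 and chr2:74958612-74958619. PRIM1, PRIM2, POLE3 and POLD2 held none of these letters in their windows. A match of letters is not a bound site, and no binding was measured here.

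The polymerases work with other proteins of the fork, and these lists were read in the same fit. Of 64 genes in 6 lists 62 were tested, 36 of them higher and 26 lower; their median was 0.03 on the log2 scale and 0 were past the adjusted threshold in edgeR or DESeq2. The list medians were 0.04 for the clamp and its loaders (10 tested), 0.07 for RPA and Okazaki fragment maturation (9 tested), 0.12 for the helicase and polymerase tethers (16 tested), 0.05 for dNTP supply (12 tested), -0.21 for the other nuclear polymerases (13 tested, 9 of them lower) and -0.12 for CST, the telomere partner of polymerase alpha (2 tested). The genes of the G1/S transition, which many subunit genes accompany through the cycle, had a median of 0.04 with 8 of 14 higher and 0 past the threshold.

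At an unadjusted p under 0.05, 1 of the 62 genes was found by edgeR and 1 by DESeq2. Beside these stand 4.48% of 15116 genes in edgeR and 1.63% of 28017 genes in DESeq2. The lists thus held no more such genes than the background. The 4 genes with the smallest p in edgeR are given next. ATAD5, which unloads PCNA, was at 3.23 and 2.42 CPM under anti-GAA and at 5.28 and 5.48 CPM under control, which gave a log2 fold change of -0.94 (SE 0.34, unadjusted p 0.0290 and adjusted p 0.996 in edgeR). WDHD1, the human AND-1 that ties polymerase alpha to the helicase, was at 17.5 and 11.6 CPM against 32.8 and 18.2 CPM. Its values were lower with the anti-GAA ASO in both numbers and lower in libraries 234 under both ASOs, with a log2 fold change of -0.82 (SE 0.35, unadjusted p 0.0539 and adjusted p 0.996 in edgeR, unadjusted p 0.0342 in DESeq2). With the number as a block, a fit that called 207 genes lower, edgeR gave WDHD1 an adjusted p of 0.0341.

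TIMELESS, of the fork protection complex, followed at 47.3 and 50.4 CPM against 64.4 and 67.8 CPM, a log2 fold change of -0.44 (SE 0.19), and REV3L, the catalytic subunit of polymerase zeta, at 5.86 and 4.33 CPM against 9.59 and 7.19 CPM, a log2 fold change of -0.73 (SE 0.33). POLD1, the catalytic partner of POLD2 and POLD3, is named here to complete polymerase delta, after its values had been seen. It was at 14.6 and 15.2 CPM under anti-GAA and at 16.6 and 15.0 CPM under control, with a log2 fold change of -0.09. POLD4, the smallest delta subunit, had 3 to 8 counts per library and was not tested.

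The mean profile of the 10 subunits over the 4 libraries, in log2 CPM around each gene's mean, was 0.10 and -0.09 under anti-GAA and 0.09 and -0.10 under control. This mean runs over ASO changes of both signs and holds POLE3, the subunit with the largest change with the number. Among the genes of the 6 lists, the nearest to it were LIG1, the ligase that seals Okazaki fragments (Euclidean distance 0.0401 over 4 libraries), POLL, a polymerase of end joining (0.107), and MCM6, a helicase subunit (0.112). LIG1 was at 37.7 and 32.6 CPM under anti-GAA and at 38.2 and 33.4 CPM under control.

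**Figure D4:**
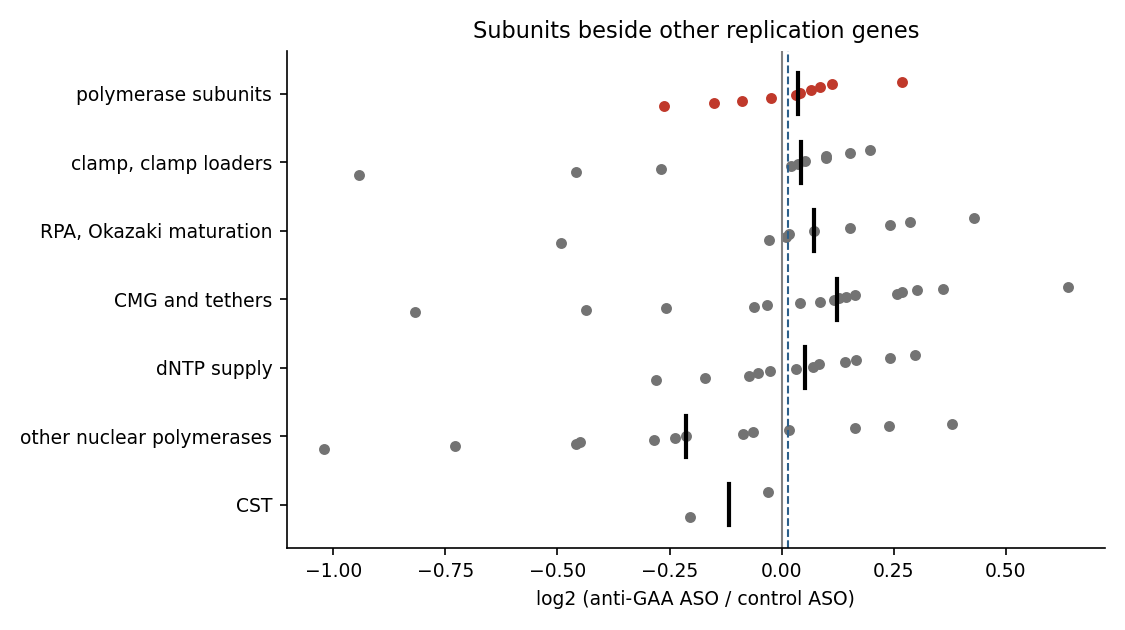
Log2 fold change of anti-GAA over control for the 10 subunits (red) and for each tested gene of the 6 other replication lists (grey), 1 point per gene; black bars are list medians and the dashed line the median of all tested genes at 0.01. The subunits span -0.26 to 0.27, and the lowest grey points include ATAD5 at -0.94 and WDHD1 at -0.82.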

How the data were processed

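RNA-seq of 4 HCT116 libraries was analysed, 2 per ASO. The authors trimmed and aligned the reads, dropped those on unplaced contigs and assigned the rest to annotated genes of hg19 (GRCh37), and the deposited values are raw counts without normalization; 0 columns of values per sample were left out. The strand setting, the Ensembl release and the treatment of reads shared between genes are not given in the sources used here. With 10538284 to 17894953 counts per library, the lowest count of a subunit was 130, and for the less abundant subunits counting error is part of the spread between libraries.

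Genes kept by filterByExpr (15116) were scaled by TMM and tested with edgeR 4.0.16 (quasi-likelihood, ASO as the only term, Benjamini-Hochberg, threshold 0.05) in R 4.3.3; DESeq2 1.42.0 was an alternative. The change with the library number came from a fit with ASO and number as terms. Differences by number are of log2 CPM with a prior count of 2. Intervals are 95% and rest on the fit's SE. Symbols, positions and transcripts came from GENCODE 44 on GRCh38, joined by Ensembl identifier (52181 of 63677 genes), with nothing converted from hg19; promoters came from RefSeq.

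The members, the lists and the tests were chosen with earlier results of these data known. Named are all 10 subunits; genes of the 6 lists past the threshold in edgeR, in DESeq2 or with the number as a block, and otherwise the 4 with the smallest p in edgeR; the 3 genes nearest to the subunits' mean profile; and the highest epithelial marker. Alternatives were DESeq2, its size factors in edgeR, scaling to totals, testing unfiltered genes, keeping genes at 1 CPM or more on average, length and GC offsets, a block for the number, omitting 1 library at a time, and other transcript lengths (the canonical one added after the data were seen). Of the symbols in the lists 1 was not matched.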

Additional observations from a re-analysis of the deposited data

How the results depend on the processing

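No subunit passed an adjusted or unadjusted threshold in any of 120 alternative values of the 10 log2 fold changes with the ASO, 104 of which kept their sign; the smallest adjusted p was 0.428. The count of all tested genes called lower and higher was 0 and 0, and became 3 and 0 with DESeq2, 111 and 5 with no filter, and between 0 and 16 and between 0 and 3 when a library was left out (16 and 2 without control library 232), which leaves a lone library assumed to vary like the others.

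With the library number as a block, 207 genes were called lower and 51 higher (214 and 93 together with length and GC offsets), and 1 gene of the 6 lists, WDHD1 (log2 fold change -0.78, adjusted p 0.0341 in edgeR); no subunit call changed. The labels put 1 anti-GAA and 1 control library under each number, but do not say that these were handled as a pair. Deviations of libraries with the same number correlated at 0.564 over genes, and the common dispersion was 0.0549 without and 0.0148 with the block.

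The median of the 10 subunits (0.037) was 0.0485 with DESeq2, 0.0454 with its size factors, -0.0583 with total counts, 0.0240 with no filter, 0.0271 at 1 CPM, 0.0107 with the offsets and 0.0120 with offsets and block. Total counts gave -0.0583 for alpha-primase, -0.0770 for epsilon and -0.0853 for delta (0.011). Leaving out a library gave -0.10 (without anti-GAA library 232) to 0.15 (without anti-GAA library 234) for all 10, -0.023 to 0.115 for alpha-primase with the same libraries, and -0.20 (without anti-GAA library 232) to 0.23 (without control library 232) for epsilon, with -0.035 to 0.067 for delta.

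Signs turned with total counts for POLA2 (-0.055), PRIM2 (-0.062), POLE2 (-0.027) and POLE4 (-0.0035), and with the offsets for POLE (0.089, with the block 0.064) and POLE4 (-0.00064). Leaving out a library gave -0.14 to 0.21 for POLA2, -0.30 to 0.22 for POLE, -0.11 to 0.27 for POLE2, -0.52 to 0.36 for POLE3 and -0.015 to 0.19 for POLE4. For the change with the number, signs turned for PRIM2 (-0.0012) and POLD3 (-0.019) with the offsets and for POLE4 (0.030) and POLD2 (0.019) with total counts. The ratio of the highest to the lowest mean TPM was 36.3 per exon length, 21.2 per longest transcript and 49.3 per canonical transcript. The cause of these shifts was not tested. With 2 libraries per ASO and the ASO as the only term, the subunits' intervals still hold changes just under 2-fold. With the number as a block each subunit's SE was smaller. For POLE3 it was 0.14 against 0.35 (log2 fold change -0.12 with the block), and for PRIM1 0.16 against 0.22 (0.27 with the block).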
